A study of Strongylocentrotus purpuratus with 8 samples.

Results

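Adult tube feet of the purple sea urchin, Strongylocentrotus purpuratus, were set against embryos of 3 stages by whole-genome bisulfite sequencing. Tube feet are the fluid-filled appendages with which the adult walks, holds on and senses its surroundings. The comparison rests on 2 adult libraries and 6 embryo libraries, taken by sample title, which are all 8 libraries of the study. The embryos were collected at 24, 48 and 72 hours post fertilisation (hpf), with 2 libraries each. The labels give no treatment, strain, sex or age of the adults, and do not say whether embryos were pooled. The study calls the libraries biological replicates. The labels do not say that they came from separate animals or cultures, so p-values measure the spread between these libraries, which may be partly technical.

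As background, DNA methyltransferases place methyl groups on cytosines followed by guanine (CpG sites), and maintenance methylation copies the pattern when DNA is replicated. In sea urchins and many other invertebrates methylation is mosaic: long methylated domains, often along the bodies of genes, alternate with domains that carry almost none. Embryos of these ages span early embryogenesis up to the larva, and tube feet are a differentiated organ of nerve, muscle, connective tissue and epithelium.

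The methylation level of a library was the share of its calls at CpG sites that were methylated, summed in windows of 500 bp. A window was tested where it held at least 4 CpG sites and at least 20 calls in every library. This left 367598 windows, 29.1% of those with at least 4 sites. A level is an average over all cells and both alleles of a sample, so 50% may mean a mixture of cells or alleles. Annotation of the windows was not analysed here, so genes, exons and introns are not named.

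The adult libraries held 92803856 and 92088802 calls at CpG sites, and the embryo libraries 75377025 to 126381599. Calls on the unmethylated lambda phage DNA added to each sample were methylated at 0.266% and 0.233% in the adult libraries and at 0.112% to 0.296% in the embryo libraries. A tested window had a median of 119 and 116 calls in the adult libraries, 67 in 24 hpf replicate 2 and 115 to 165 in the other embryo libraries. The library 24 hpf replicate 2 stood apart, with 42.2% of its pooled calls methylated against 24.2% in 24 hpf replicate 1. Library means and class shares, counts of windows called against every stage or 1 stage, and the test between stages are therefore also given without it. Other results keep it, apart from the repeats for named windows and runs. No 2 libraries held identical values.

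Adult tube feet carried less methylation than the embryos, and fewer of their windows were nearly fully methylated. The mean level of a window was 27.4% and 27.1% in the adult libraries. It was 32.1% and 34.3% at 24 hpf, 31.5% and 32.5% at 48 hpf, with 32.3% and 32.3% at 72 hpf. No embryo library was as low as either adult library. With equal weight per stage, the adult minus embryo difference was -5.25 points (two-sided exact permutation test over 28 splits of 2 against 6 libraries, p = 0.0357, the smallest the test can give; 0.0459 after Benjamini-Hochberg adjustment over 9 measures).

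The shares of windows in 3 level classes differed as well. Windows at 80% or more made up 16.6% ± 0.619 of all windows in adult tube feet, against 28.7% ± 1.34, 26.7% ± 0.834 and 27.6% ± 0.198 in embryos of 24, 48 and 72 hpf (SD, n = 2 each). Windows between 20% and 80% made up 20.8% ± 0.582 in adult tube feet, against 11.7% ± 0.476, 13.0% ± 0.119 and 11.7% ± 0.514 at the 3 stages (SD, n = 2 each). Windows at 20% or less made up 62.6% ± 0.0366 in adult tube feet, against 59.6% ± 1.81, 60.3% ± 0.716 and 60.7% ± 0.317. In each class the adult libraries lay outside the range of the embryo libraries. The adult minus embryo differences were -11.05, 8.64 and 2.40 points (exact permutation test, p = 0.0357 and adjusted p = 0.0459 each). Without 24 hpf replicate 2 they were -10.7, 8.76 and 1.98 points, and the mean level differed by -4.88 points (exact permutation test, p = 0.0476 each, without adjustment). These values keep the windows chosen with that library. In windows also selected without it they were smaller, at -9.64, 7.79 and 1.85 points, and the mean level differed by -4.55 points. With calls pooled over all windows in place of equal weight per window, the mean differed by -6.81 points and no longer passed (exact permutation test, p = 0.25).

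**Figure D1:**
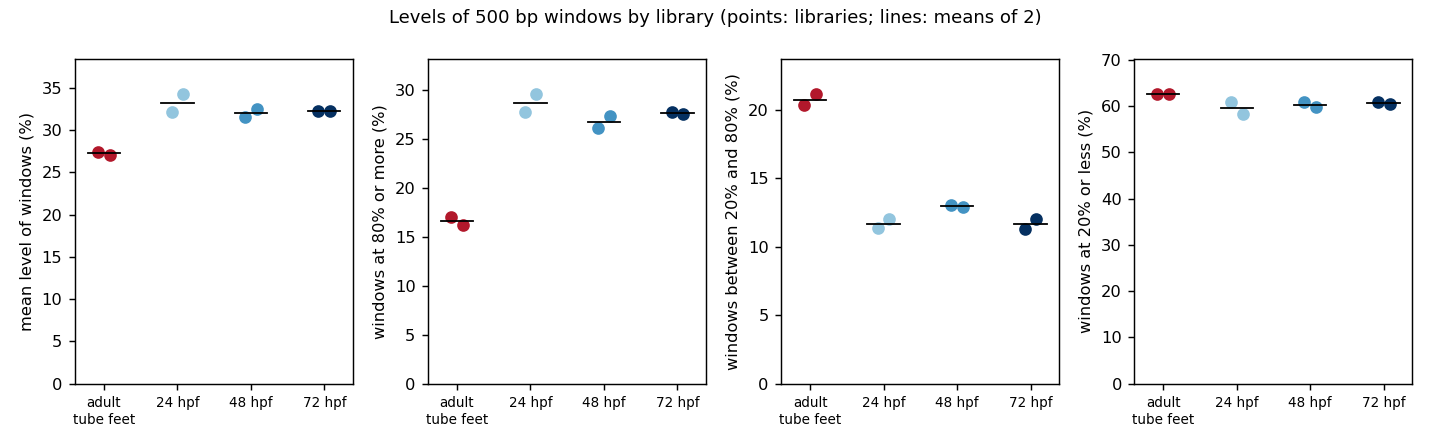
Mean level of 500 bp windows and shares of windows in 3 level classes (percent, from 0) in adult tube feet and embryos of 24, 48 and 72 hpf; points are libraries and lines are means of 2. The adult libraries lie at 16.2% and 17.1% in the class at 80% or more, below all embryo libraries (26.2% to 29.6%), and at 20.4% and 21.2% in the class between 20% and 80%, above them (11.3% to 13.1%).

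The question for each window was whether the adult differed from every stage or from a single stage. Each window was fitted with a quasi-binomial model, with limma's moderation of the dispersion and 1 mean per group. A difference from a stage was called at a Benjamini-Hochberg adjusted p below 0.05 and at least 20 percentage points. A difference from every stage was called on the largest of the 3 p-values, adjusted over all windows, with at least 20 points in the same direction from each stage, so that each stage counts equally. All 3 contrasts use the same 2 adult libraries, so their calls are not independent.

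Adult tube feet were lower than 24 hpf embryos in 36991 windows (10.1% of all windows tested), lower than 48 hpf embryos in 33322 (9.06%) and lower than 72 hpf embryos in 33903 (9.22%). They were higher in 3044 (0.828%), 3565 (0.970%) and 3574 (0.972%) windows against the 3 stages. Most lower calls held against every stage: 27082 windows (7.37% of those tested), or 64.8% of the 41775 windows called lower against at least 1 stage. The joint test called 2205 windows higher than every stage (0.600%), or 47.5% of the 4640 called higher against at least 1 stage. Without 24 hpf replicate 2 these counts were 24703 and 2738. The lower count was 16926 without adult replicate 1 and 16819 without adult replicate 2. The higher count was 1358 and 1368 without those libraries and 1331 without 24 hpf replicate 1, and limma on log2 ratios called 1394.

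A further 1215 lower and 136 higher windows passed each contrast by itself but not the joint test. Exactly 2 stages gave a call in 5847 lower and 861 higher windows. Exactly 1 stage gave a call in 7631 lower windows (2.08% of those tested) and in 1438 higher windows (0.391%). Without 24 hpf replicate 2, exactly 1 stage gave a call in 7904 lower and 1859 higher windows.

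**Figure D2:**
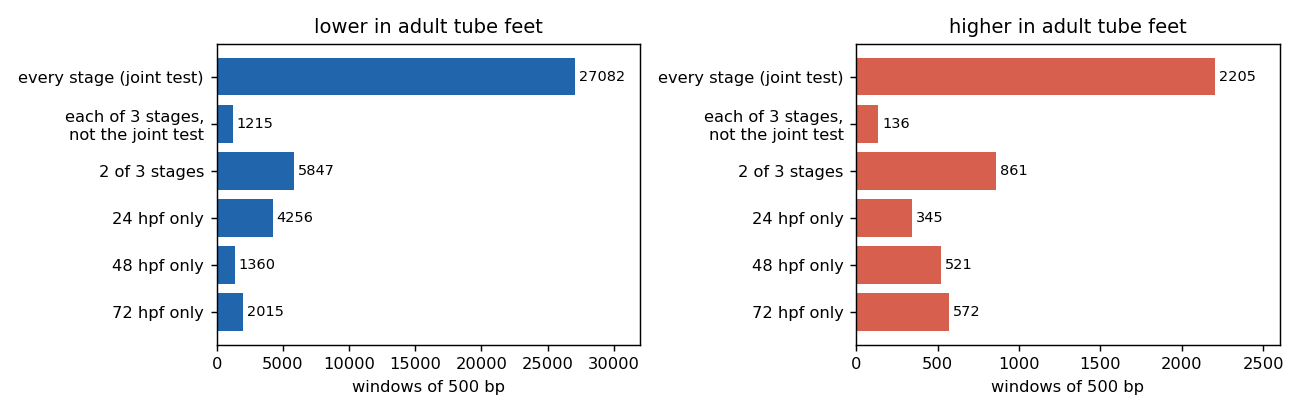
Number of 500 bp windows called lower (left) and higher (right) in adult tube feet, by the embryonic stages against which they were called; the 2 axes have different scales. The bar for every stage is the longest on each side, at 27082 and 2205 windows.

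Windows lower against every stage were methylated in embryos and mostly intermediate in the adult. Their median level was 37.8% and 37.5% in the adult libraries, against 88.4% and 89.2% at 24 hpf, 85.7% and 86.9% at 48 hpf, with 87.7% and 87.1% at 72 hpf. In 27074 of the 27082 windows, both adult libraries were lower than each of the 6 embryo libraries. Over all windows tested, the same order was found in 72735 (19.8%). The median of the smallest stage difference was -40.5 points, and the adult replicates differed by a median of 5.59 points.

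The adult level was between 20% and 80% in 20226 of these windows (74.7%) and at 20% or less in 6856 (25.3%). In 18555 (68.5%), the level was at 80% or more at every stage. A change from at least 80% at every stage to at most 20% in the adult was found in 2537 windows (9.37%), with a median adult level of 10.3%. In 1413 of the lower windows both adult libraries were at 1% or less. Their embryo level had a median of 47.4%, and their smallest stage difference a median of -39.8 points. The level was between 20% and 80% at every stage in 4324 lower windows, with medians of 8.18% in the adult and 58.5% in the embryos. Over all lower windows, the smallest stage difference was at least 50 points in 8455 and at least 80 points in 860.

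Windows higher against every stage were mostly unmethylated in embryos and intermediate in the adult. Their median level was 54.5% in both adult libraries, against 4.04% and 7.01% at 24 hpf, 4.72% and 5.32% at 48 hpf, with 3.93% and 4.55% at 72 hpf. The adult libraries lay above all 6 embryo libraries in 2201 of the 2205 windows. Over all windows tested that order was found in 20494 (5.58%). The median of the smallest stage difference was 35.5 points, and the adult replicates differed by a median of 5.85 points.

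Among the higher windows, 1459 (66.2%) were at 20% or less at every stage, with a median adult level of 40.7%. Another 543 were between 20% and 80% at every stage, with medians of 85.7% in the adult and 42.0% in the embryos. The adult level was between 20% and 80% in 1660 windows and at 80% or more in 545. Only 102 windows went the whole way, with at most 20% at every stage and at least 80% in the adult. The adult to embryo depth differed by 2-fold or more, either way, in 24.3% of the higher windows, 11.1% of the lower windows and 14.6% of all windows tested. The part of depth in these calls was not tested.

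**Figure D3:**
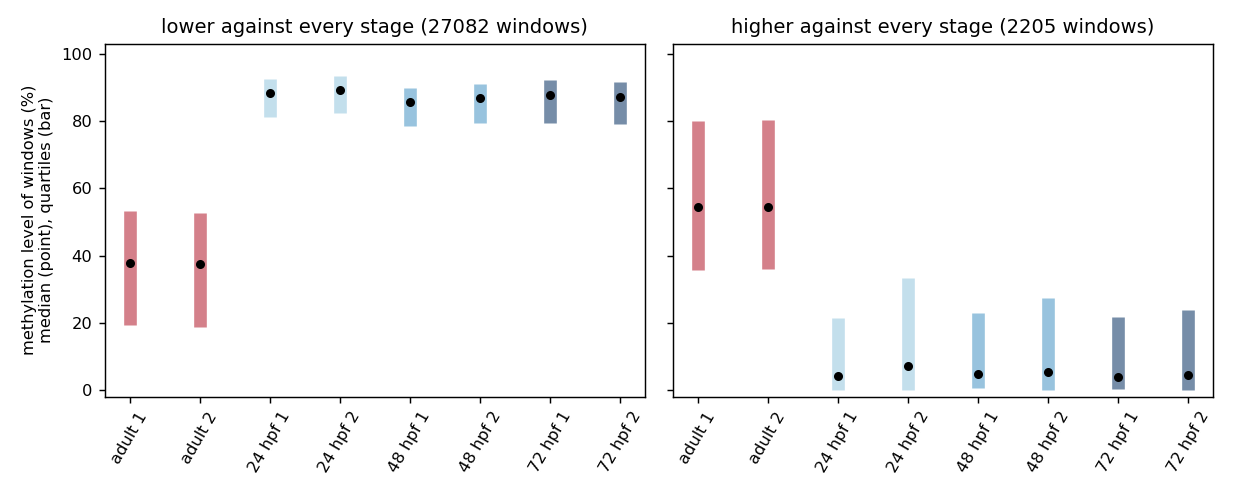
Methylation level (%) of windows called lower (left) and higher (right) against every stage, in each of the 8 libraries; points are medians over windows and bars span the quartiles. In the left panel the adult medians are 37.8% and 37.5% and the embryo medians 85.7% to 89.2%; in the right panel they are 54.5% in both adult libraries and 3.93% to 7.01% in embryos. The windows were chosen for these differences.

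Windows chosen in replicate 1 of every group were then measured in replicate 2. Of 31785 windows at least 20 points lower in adult replicate 1 than in replicate 1 of every stage, 81.0% were also at least 20 points lower in the replicate 2 libraries, against 9.66% of all windows tested. With the replicates exchanged, the share was 72.5% of 35511 windows, against 8.65%. For higher windows, 43.1% of 4565 chosen in replicate 1 recurred in replicate 2 (0.775% of all windows). Of 2850 chosen in replicate 2, 69.1% recurred in replicate 1 (1.24%). The replicate 2 libraries include 24 hpf replicate 2. The 4565 windows had median differences in replicate 2 of 19.2, 25.8 and 28.7 points from 24, 48 and 72 hpf. The 2850 had 34.4, 33.9 and 34.0 points in replicate 1. The part of 24 hpf replicate 2 in the recurrence was not tested. In both directions the recurring share was above that of all windows tested. For lower windows that reference is low, because 59.1% of all windows were at 20% or less at every stage, with little room for a fall. Recurrence was not set against windows of like embryo level.

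Adult and embryo libraries were farther apart than any embryo libraries were from each other. Over 170905 windows that were not near 0% or 100%, the mean absolute difference of a window was 15.8 to 19.8 points between an adult and an embryo library. It was 6.68 points between the adult libraries, 5.89 to 9.11 points between replicates of a stage and 5.86 to 9.21 points between libraries of different stages.

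Embryonic state was set beside the adult level without choosing windows on the adult. Of 91082 windows at 80% or more at every stage, the adult kept 55.7% at 80% or more, held 41.5% at an intermediate level and had 2.79% at 20% or less. Of these windows, 20.4% were called lower against every stage. They were chosen for a high level in embryos and not in the adult, which favours adult levels below 80%. Of 217276 windows at 20% or less at every stage, 98.7% had an adult level in the same class and 0.671% were called higher. The 28702 windows between 20% and 80% at every stage held calls in both directions, 15.1% lower and 1.89% higher, and 21.1% of them were at 20% or less in the adult.

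The number of CpG sites in a window, which the tests did not use beyond the minimum of 4, varied with the difference. In windows of 4 to 7 sites the mean level was 54.3% and 53.8% in the adult libraries and 67.6% to 70.7% in the embryo libraries, a difference of -15.01 points. The differences were -8.87 points at 8 to 11 sites and -3.32 points at 12 to 19 sites (exact permutation test, p = 0.0357 and adjusted p = 0.0459 for each of these 3 classes). At 20 to 29 sites the level was 17.1% and 16.9% in the adult libraries and 17.98% to 21.4% in the embryo libraries. This difference of -1.97 points did not pass (exact permutation p = 0.107, adjusted p = 0.121). It was -1.41 points without 24 hpf replicate 2, with an exact permutation p of 0.0476 before adjustment. At 30 sites or more the groups overlapped, with 15.1% and 15.1% in the adult libraries and 14.8% to 20.8% in the embryo libraries (-1.48 points, exact permutation p = 0.5, adjusted p = 0.5). That difference was -0.490 points without 24 hpf replicate 2. In windows also selected without that library, all classes had smaller differences. From the fewest to the most sites they were -12.0, -5.73, -2.26, -1.32 and -0.430 points. The differences between classes were not tested against each other.

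The share of windows called also varied with the number of sites. The share of windows called lower against every stage was 20.8% at 4 to 7 sites, 12.8% at 8 to 11, 4.78% at 12 to 19, 2.33% at 20 to 29 and 1.69% at 30 or more. Among windows at 80% or more at every stage it was 26.8%, 23.3%, 17.7%, 9.90% and 7.19% in these classes. The share called higher was 0.357%, 0.524%, 0.560%, 0.704% and 1.33% of all tested windows. Among windows at 20% or less at every stage it was 1.24%, 0.719%, 0.529%, 0.675% and 1.53%, so it was highest in the classes with the fewest and the most sites. A lower window held a median of 10 CpG sites and a higher window 16, against 15 over all windows tested, 11 in windows methylated at every stage and 16 in those unmethylated at every stage.

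Single CpG sites inside the called windows were examined where they had at least 20 calls in a library. In lower windows with an intermediate adult level, 82.1% and 81.4% of the sites were themselves between 20% and 80% in the adult libraries, against 11.9% to 21.9% in the embryo libraries. Where such a window held at least 4 such sites, which held for 2541 and 1735 of the 20226 windows in the adult libraries, all of these sites were between 20% and 80% in 48.4% of windows in each adult library. Sites at 20% or less and sites at 80% or more occurred together in 4.25% and 4.09% of them. Windows between 20% and 80% at every stage and in the adult had similar adult values. There 83.7% and 83.1% of sites were between 20% and 80%, and all such sites were in 53.1% and 52.3% of windows. In lower windows with an adult level of 20% or less, 91.5% and 90.1% of sites were at 20% or less in the adult libraries. In the embryo libraries, 23.6% to 52.2% of sites there were at 80% or more and 45.5% to 66.4% between 20% and 80%. In higher windows with an adult level of 80% or more, 85.4% and 83.4% of sites were at 80% or more in the adult libraries. In the embryo libraries, 12.7% to 25.5% of sites there were at 20% or less and 72.4% to 84.5% between 20% and 80%. These sets were chosen by window level, which favours sites of the same class and the contrast with embryos. Sites were few at this depth, and whether cells or alleles differ could not be read from these counts.

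The 4 largest falls that met the naming rule ended at or near 0% in the adult. Scaffold298:267501-268000 (coordinates of the Spur3.1 build, counted from 1) has 7 CpG sites. Here 0 of 60 and 0 of 84 calls were methylated in adult tube feet, which allows a level of up to 5% and 3.57%. Its level was 90.8% and 98.3% at 24 hpf, 117 of 120 calls and 95.1% at 48 hpf, with 98.6% and 89.2% at 72 hpf. The smallest stage difference was -94.2 points (adjusted p = 0.000154, joint quasi-binomial test).

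Scaffold57:1302501-1303000 has 13 sites. In adult tube feet 0 of 180 and 0 of 176 calls were methylated, which allows up to 1.67% and 1.70%, against 97.4% and 93.0% at 24 hpf, 95.9% and 95.8% at 48 hpf, with 97.2% and 92.9% at 72 hpf. All 13 sites had enough calls to be read singly with the libraries of a group summed, and each was at 0% in the adult and between 82.6% and 97.7% in the embryos. The smallest stage difference was -93.7 points (adjusted p = 7.64e-05, joint quasi-binomial test). The difference extended to its neighbours. The window just before it stood at 1.26% in adult tube feet and 88.4% in embryos, and the window just after it at 0% and 76.0%.

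Scaffold8685:4001-4500 has 12 sites, of which 0 of 54 and 0 of 121 calls were methylated in adult tube feet (up to 5.56% and 2.48%). Its level was 96.3% and 98.5% at 24 hpf, 89.4% and 96.8% at 48 hpf, with 96.0% and 95.4% at 72 hpf, with a smallest stage difference of -93.6 points (adjusted p = 8.01e-05, joint quasi-binomial test). Scaffold22:21001-21500 has 35 sites and stood at 0.789% and 0% in adult tube feet, where 0 of 360 calls allow up to 0.833%. It stood at 92.2% and 96.1% at 24 hpf, 98.9% and 95.2% at 48 hpf, with 98.8% and 96.4% at 72 hpf. The adult libraries had more calls here than most embryo libraries, with a log2 ratio of depth of 1.29, and the part of depth in the difference was not tested. Its smallest stage difference was -95.2 points (adjusted p = 7.88e-05, joint quasi-binomial test).

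The 4 largest rises ran from nearly 0% in all embryo libraries to over 90% in both adult libraries. Scaffold13:468501-469000 (16 sites) stood at 100% and 94.0% in adult tube feet, against 0% to 2.59% in embryos. Scaffold3460:28001-28500 (21 sites) stood at 97.6% and, from 57 of 60 calls, 95% in adult tube feet and 0% to 2.34% in embryos. The window just before it was at 90.0% in adult tube feet and 0.316% in embryos, and both windows after it were also higher in the adult, at 76.2% and 78.0% against 7.65% and 3.604%. Scaffold1376:54501-55000 (16 sites) stood at 97.3% and 92.5% in adult tube feet and 0% to 2.69% in embryos. Scaffold10:845501-846000 (41 sites) stood at 91.5% and 96.2% in adult tube feet and 0% to 4.50% in embryos. The smallest stage differences of the 4 windows were 95.5, 95.1, 93.6 and 91.9 points in this order. Their adjusted p-values in the joint quasi-binomial test were 0.000101, 8.45e-05, 7.64e-05 and 9.33e-05. These 8 windows, the 4 falls and the 4 rises, kept their calls under every alternative run for them.

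Windows typical of each class had smaller differences. They were those whose smallest stage difference was closest to the median of the class. Scaffold824:102001-102500 (4 sites), lower with an adult level of at most 20%, stood at 18.5% and 12.3% in adult tube feet and 71.4% to 87.4% in embryos, with a smallest stage difference of -61.4 points (adjusted p = 0.000995, joint quasi-binomial test). Scaffold397:42001-42500 (11 sites), lower with an intermediate adult level, stood at 53.8% and 45.0% in adult tube feet and 84.7% to 94.4% in embryos. Its difference was -37.5 points (adjusted p = 0.00232, joint quasi-binomial test). The adult and embryo values of both windows did not overlap.

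The typical higher windows lost their calls under some alternatives. Scaffold494:513001-513500 (9 sites) stood at 85.1% and 84.4% in adult tube feet and 20.1% to 45.3% in embryos, a smallest difference of 43.5 points (adjusted p = 0.00835, joint quasi-binomial test). Its call was lost without adult replicate 1 (adjusted p = 0.0753) and without adult replicate 2 (adjusted p = 0.0898), while the difference was 43.2 and 43.8 points, with 1 adult library left in each case. Scaffold2751:20501-21000 (32 sites) stood at 47.7% and 48.2% in adult tube feet. It stood at 2.99% and 31.1% at 24 hpf, 12.1% and 16.6% at 48 hpf, with 1.68% and 4.92% at 72 hpf, a smallest difference of 33.9 points (adjusted p = 0.0230, joint quasi-binomial test). The adult libraries had a log2 depth ratio of 2.02 over the embryos here. This call was lost under limma (adjusted p = 0.369) and without any 1 of the 7 libraries other than 24 hpf replicate 2, at adjusted p-values of 0.0574 to 0.490. Without 24 hpf replicate 1 the difference was 16.9 points.

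**Figure D4:**
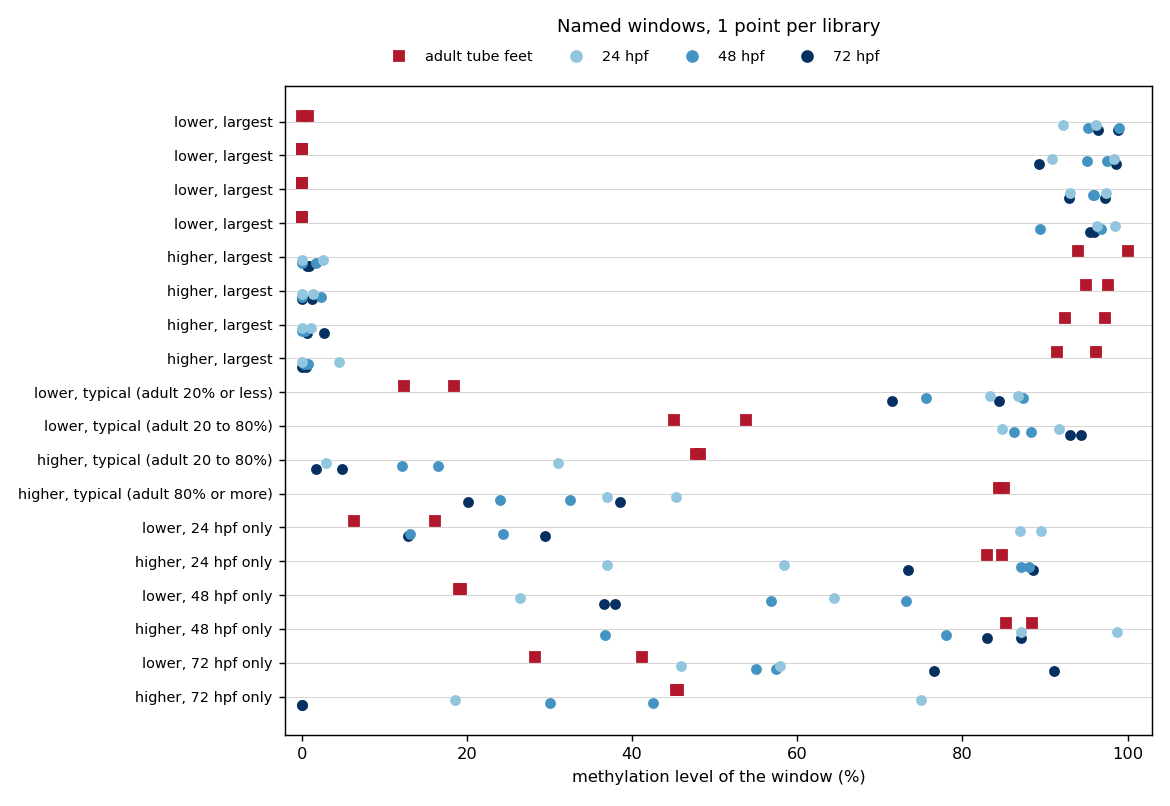
Methylation level (%) of the named windows, 1 row per window and 1 point per library, with adult tube feet as squares and embryos as circles. The upper 4 rows have adult levels under 1% and embryo levels over 89%, and the next 4 rows have adult levels of 91.5% or more and embryo levels of 4.50% or less; the lower 6 rows are windows called against 1 stage only, where 1 stage lies apart from the adult and the others lie nearer to it.

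Called windows lay next to each other. After a window lower against every stage, the adjacent tested window was also called lower in 59.4% of pairs, against 5.93% over all adjacent pairs. For higher windows the shares were 43.0% and 0.607%. Even so, 80.9% of the 21416 runs of lower windows and 84.3% of the 1775 runs of higher windows were a single window. Both windows were tested in 160400 adjacent pairs, and an untested neighbour ends a run. Runs of 3 or more windows held 13.2% of the lower and 14.1% of the higher windows. The share over all pairs is a low reference for lower calls, because 59.1% of tested windows were at 20% or less at every stage. Of single windows at 80% or more at every stage, 20.4% were called lower. How far adjacent calls follow from adjacent methylated windows was not tested.

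The longest lower run covered 14 windows and 7000 bp at Scaffold2268:50501-57500, with 320 CpG sites. Its level over all calls was 6.90% and 9.88% in adult tube feet, against 89.1% and 87.5% at 24 hpf, 78.8% and 85.6% at 48 hpf, with 82.5% and 86.2% at 72 hpf. The next, Scaffold2816:57501-64000 (13 windows, 117 sites), stood at 21.1% and 22.6% in adult tube feet and 69.0% to 72.5% in embryos. The longest higher run, Scaffold97:666001-670500 (9 windows, 113 sites), stood at 86.5% and 84.6% in adult tube feet and 21.0% to 27.8% in embryos. The run at Scaffold1393:288501-292500 (8 windows, 138 sites) stood at 83.6% and 81.3% in adult tube feet and 1.32% to 2.61% in embryos. In all 4 runs the adult and embryo libraries lay apart.

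Tested windows outside the runs were also described by their distance. Next to a run of lower windows, where the tested window is by construction not called, the mean level was 59.2% in adult tube feet, against 75.7% at 24 hpf, 73.1% at 48 hpf and 73.8% at 72 hpf (7717 windows). At 5000 bp from a run of lower windows, the mean level was 49.9% in adult tube feet, against 77.2% at 24 hpf, 74.9% at 48 hpf and 75.7% at 72 hpf (10594 windows). At 5000 bp from a run of higher windows it was 35.1% in adult tube feet, against 29.8%, 28.6% and 28.4% (784 windows). Next to a run of higher windows it was 38.1% in adult tube feet, against 30.2%, 27.4% and 26.3% (1114 windows). The means at 5000 bp include windows that were called themselves. None of these means was set against windows of like embryo level elsewhere.

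The share of methylated windows that were lower in the adult differed widely between scaffolds. On 220 scaffolds with at least 100 windows at 80% or more at every stage, the share called lower against every stage ranged from 0.694% to 73.6%, with a median of 20.5%. The mean level of these windows per scaffold ranged from 50.5% to 89.7% in adult replicate 1 and from 48.7% to 88.7% in adult replicate 2. It ranged from 85.7% to 92.7% in the embryo libraries, whose range is limited by the choice of windows. The adult replicates differed by at most 2.56 points on any of these scaffolds, and both lay below all embryo libraries on all 220. The windows were chosen for a high level in embryos and not in the adult, which favours this order.

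The scaffolds at the ends of this range, chosen after their values were seen, show the contrast. On Scaffold855, 1 of 144 such windows was called lower, and the mean level was 89.7% and 88.7% in adult tube feet and 90.3% to 92.7% in embryos. On Scaffold1396, 78 of 106 were called lower, and the level was 51.7% and 49.6% in adult tube feet and 88.8% to 91.4% in embryos. The median window held 12 CpG sites on Scaffold855 and 10 on Scaffold1396.

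**Figure D5:**
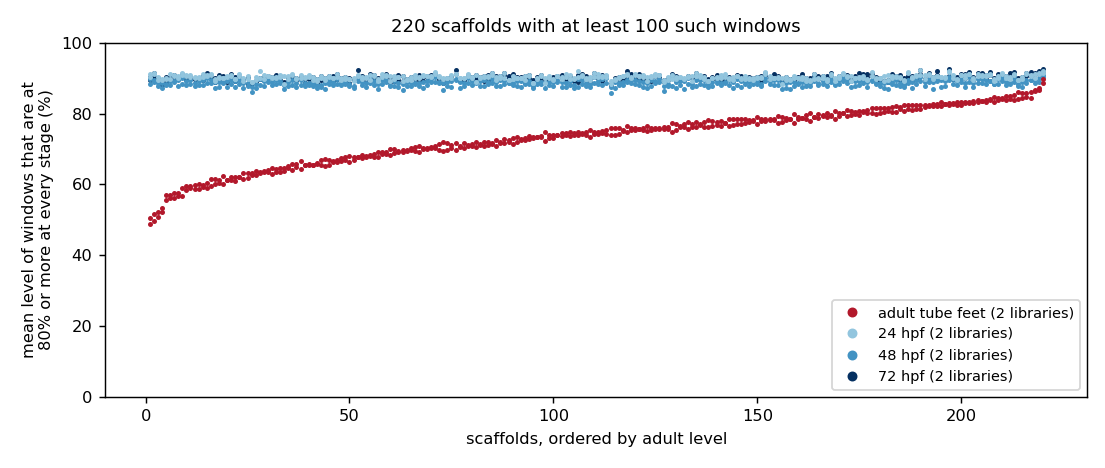
Mean level (%) of windows at 80% or more at every stage on each of 220 scaffolds, ordered by the adult level; each scaffold has 1 point per library. Adult points span 48.7% to 89.7% with the 2 replicates close together, while embryo points lie between 85.7% and 92.7% by the choice of windows.

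In most windows called against a single stage, the adult difference had the same direction against the other stages. Of the windows lower against 1 stage only, 4256 were called against 24 hpf, 1360 against 48 hpf and 2015 against 72 hpf. This split depended on the 24 hpf libraries. Without 24 hpf replicate 2 it was 1514, 3001 and 3389, and without 24 hpf replicate 1 the count against 24 hpf only was 8064. In the 4256, the median adult difference was -26.9 points from 24 hpf, -17.9 from 48 hpf and -17.5 from 72 hpf, and in 4071 the adult was lower than all 3 stages. The adult median was 48.3% and 48.1%, against 78.3% and 85.6% at 24 hpf, 68.3% and 72.2% at 48 hpf, with 69.2% and 69.9% at 72 hpf. Of the windows higher against 1 stage only, 345 were called against 24 hpf, 521 against 48 hpf and 572 against 72 hpf, and the adult was higher than all 3 stages in 332, 498 and 540 of them. A call against 1 stage alone does not show that the stages differ, so the called stage was tested against the mean of the other 2.

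This stage test, a Wald test with the same moderated dispersion adjusted over all 367598 windows, passed in 42 of the 4256 windows called lower against 24 hpf only. Among those 4256 windows, 1672 had an unadjusted p below 0.05. The choice of windows rests on the same levels and favours small unadjusted p-values, here and in the counts below. The share of all windows tested with an unadjusted p below 0.05 was not counted. Over all windows the stage test passed in 127 at 24 hpf (0.0345%) and 3 at 72 hpf (0.000816%). Of the windows lower against 48 hpf only it passed in 0, with an unadjusted p below 0.05 in 256. Of those lower against 72 hpf only it passed in 0, with 437 unadjusted. Of the higher windows it passed in 0 called against 24 hpf only (148 unadjusted), 0 against 48 hpf only (157 unadjusted) and 1 against 72 hpf only (256 unadjusted). limma on log2 ratios passed 0 in every case. A window that misses the threshold with 2 libraries per stage is not shown to be alike between stages. The count of 42 was 24 without 24 hpf replicate 2 and 1320 without 24 hpf replicate 1, where 24 hpf replicate 2 stands alone for its stage. It was 0 without adult replicate 1, adult replicate 2 or 72 hpf replicate 2, 1 without 48 hpf replicate 1, 3 without 48 hpf replicate 2 and 4 without 72 hpf replicate 1. With a quasi-likelihood F test of the stage against the pooled reads of the other 2 stages, which changes both the test and the weighting, 5 windows passed.

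In the 42 windows, the median level was 29.3% and 32.7% in adult tube feet, against 83.2% and 83.2% at 24 hpf, 38.7% and 38.2% at 48 hpf, with 32.0% and 29.3% at 72 hpf. The choice of windows favours this pattern, with 24 hpf apart and the adult nearer to the later stages. Both 24 hpf libraries lay above all other embryo libraries in all 42. The 72 hpf level was below the 48 hpf level in 36. The adult lay below all 6 embryo libraries in 10 of the 42, an order found in 19.8% of all windows tested. It lay above all 48 and 72 hpf libraries in 6, an order not counted over all windows. Adult levels ranged from 0% to 70.9% and from 0% to 63.8% in the 2 libraries.

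All 5 windows that also passed the F test were intermediate in the adult and highest at 24 hpf. Scaffold265:151501-152000 (16 sites) stood at 46.8% and 40.4% in adult tube feet, against 86.7% and 89.5% at 24 hpf, 34.3% and 39.2% at 48 hpf, with 31.7% and 20.6% at 72 hpf. Scaffold1256:330501-331000 (19 sites) stood at 40.9% and 32.8% in adult tube feet, against 90.5% and 87.6%, 49.0% and 46.1%, and 37.2% and 45.0% at the 3 stages. Adjacent windows at Scaffold1358:58001-58500 and Scaffold1358:58501-59000 differed in the same way. The first stood at 39.2% and 39.4% in adult tube feet, against 86.7% and 87.8% at 24 hpf, 34.7% and 21.3% at 48 hpf, with 16.5% and 27.9% at 72 hpf. The other stood at 26.2% and 34.4% in adult tube feet, against 64.3% and 70.8% at 24 hpf, 12.9% and 16.8% at 48 hpf, with 15.3% and 11.9% at 72 hpf. The last, Scaffold1122:165001-165500 (11 sites), stood at 35.8% and 37.1% in adult tube feet, against 74.8% and 69.7% at 24 hpf, 21.0% and 22.2% at 48 hpf, with 17.0% and 11.9% at 72 hpf. These 5 were singled out after their values were seen.

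In 4 windows the adult was called lower than one stage and higher than another, so that the adult level lay between stages. Scaffold1122:165001-165500 was lower than 24 hpf (adjusted p = 0.00129) and higher than 72 hpf (adjusted p = 0.00791) in the quasi-binomial test. Scaffold637:157501-158000 (27 sites) stood at 21.2% and 34.3% in adult tube feet, against 57.6% and 70.6% at 24 hpf, 35.2% and 44.3% at 48 hpf, with 1.75% and 0% at 72 hpf. It was lower than 24 hpf (adjusted p = 0.00886) and higher than 72 hpf (adjusted p = 0.0198) in the quasi-binomial test, and the stage test passed at both. Scaffold746:313001-313500 (32 sites) stood at 39.0% and 34.8% in adult tube feet, against 87 of 116 and 42 of 42 methylated calls at 24 hpf, 18 of 72 and 45 of 100 at 48 hpf, with 9 of 236 and 11 of 61 at 72 hpf. Scaffold954:190001-190500 (19 sites) stood at 48.0% and 53.1% in adult tube feet, against 58.3% and 86.2%, 25.8% and 16.4%, and 31.6% and 30.4% at the 3 stages. In both of these windows the 24 hpf replicates lay far apart.

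The window with the widest gap between 24 hpf and the nearer of the other stages, among those lower against 24 hpf only, was Scaffold946:300501-301000 (7 sites). It stood at 16.1% and 6.32% in adult tube feet, against 86.9% and 89.5% at 24 hpf, 24.4% and 13.2% at 48 hpf, with 12.9% and 29.4% at 72 hpf. The adult overlapped both later stages, and the stage test passed (adjusted p = 0.0147, Wald test with limma's moderated dispersion).

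The windows chosen in the same way for the other stages and direction did not pass the stage test (adjusted p = 0.257 to 1, Wald test with limma's moderated dispersion). Scaffold985:243001-243500, higher against 24 hpf only, stood at 84.8% and 82.9% in adult tube feet and 37.0% and 58.4% at 24 hpf, with 73.4% to 88.6% in the other embryo libraries. Scaffold3129:33501-34000, lower against 48 hpf only, stood at 19.3% and 19.05% in adult tube feet and 56.8% and 73.2% at 48 hpf, but also at 64.5% in 24 hpf replicate 2. Scaffold1917:5001-5500, higher against 48 hpf only, rested on 48 hpf replicate 1. It stood at 88.5% and 85.3% in adult tube feet and at 36.7% and 78.0% at 48 hpf, and the difference of 37.6 points was 8.65 points without that library. Its depth ratio was 1.91 on the log2 scale.

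The windows for 72 hpf were Scaffold1063:533001-533500, lower, and Scaffold2217:32501-33000, higher. Scaffold1063 stood at 41.2% and 28.2% in adult tube feet and 91.0% and 76.6% at 72 hpf, with 45.9% to 57.9% at the earlier stages. In Scaffold2217, 34 of 75 and 52 of 114 calls were methylated in adult tube feet, and 0 of 122 and 0 of 84 at 72 hpf, which allows up to 2.46% and 3.57%. The earlier stages ranged from 18.5% to 75.0% there, with the 24 hpf replicates at both ends. The calls for Scaffold985, Scaffold3129, Scaffold1917 and Scaffold2217 were each lost without at least 1 adult library, with 1 adult library left in the group. Their differences changed little there. They were 36.6 points against 37.8 in Scaffold985, and -44.8 and -44.6 against -44.7 in Scaffold3129. In Scaffold1917 they were 36.3 and 39.5 against 37.6, and in Scaffold2217 45.6 and 45.3 against 45.5. The calls were also lost without a library of the called stage. Without 24 hpf replicate 1 the difference was 25.7 points in Scaffold985. Without 48 hpf replicate 2 it was -37.6 points in Scaffold3129, and without 48 hpf replicate 1 it was 8.65 points in Scaffold1917. In Scaffold2217 it stayed at 45.5 points without 72 hpf replicate 1 and without 72 hpf replicate 2. Under limma on log2 ratios the call for Scaffold1917 was lost as well (adjusted p = 0.219).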

How the data were processed

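DNA was sonicated, bisulfite converted and amplified by PCR, with lambda phage DNA added, per the labels' protocols. Per the file headers, CpG calls on the Spur3.1 build come from MethylDackel on deduplicated reads. Trimmomatic and Picard are named in the submitters' processing notes. Versions of these tools and the name of the aligner are not given in the sources used for this work. The authors deposited counts of methylated and unmethylated reads per CpG site, and a percent per site cut down to a whole number. The counts were used, and the percent was not used for levels. A C-to-T difference between an animal and the reference would be read as unmethylated.

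Lambda rows were left out and calls were summed in 500 bp windows. Windows with a mean group level within 2.5 points of 0% or 100% were not fitted, took the p-value of no difference and stayed in the adjustment, which left 170905 of 367598 fitted. The quasi-binomial model had 1 mean per group and no block, all 8 libraries, Pearson dispersion moderated by squeezeVar of limma 3.58.1 with a trend on coverage and a lower bound of 1, and quasi-likelihood F tests (R 4.3.3; Python 3.11.15, scipy 1.17.1). The stage test was a Wald test on the level scale. An F test of the stage against the pooled reads of the other 2 stages was added after the data had been seen. Library means were compared by exact permutation. The fit was tested on simulated data.

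Named windows have at least 50 calls in every library and were, with at most 1 per scaffold in each group: the 4 lower and 4 higher with the largest smallest stage difference, the median window of 4 classes, for each stage and direction the 1-stage window with the widest gap to the other stages, and the 2 longest runs in each direction. The members, tests and naming rule were chosen with earlier results of these data known. A read covering several CpG sites is counted at each, so calls are not independent, and limits for counts of 0 (3 calls of the total) cover counting error only. Alternatives covered read minimum, window offset, threshold, test, block, weighting, thinning and each library left out.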

Additional observations from a re-analysis of the deposited data

Results flagged for a closer look

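In the 6 embryo libraries, 31 values were examined for a library far from the rest, by Dixon's test at 95%, which divides the gap between a library and its neighbour by the range, and 5 stood out. Chance gives about 1 in 20. The library 24 hpf replicate 2 had a mean window level of 34.3%, against 32.5% in the next library, and a mean level of 26.0% in windows of 12 to 19 CpG sites, against 24.6% in the next. In Scaffold8685:4001-4500 the library 48 hpf replicate 1 stood at 89.4%, against 95.4% or more in the others. In Scaffold10:845501-846000 the library 24 hpf replicate 1 stood at 4.50%, against 0.743% or less in the others. In Scaffold1917:5001-5500 the library 48 hpf replicate 1 stood at 36.7%, against 78.0% or more in the others. A difference between stages, tested directly, was found for 42 windows lower in adult tube feet against 24 hpf only. It was also found for 1 window higher against 72 hpf only, Scaffold637:157501-158000, which is among the 42. The causes were not tested.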

How the results depend on the processing

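Shifting the windows by 250 bp, fitting without a lower bound on the dispersion and a threshold of 10 points left the 5 counts within 1.5 times of those reported. With at least 40 reads per window, 16049 windows were lower and 1306 higher than every stage, and 3919 were lower and 731 higher against 1 stage only; with 10 reads the 1-stage counts were 12442 and 2351. When windows were selected and fitted on the 7 libraries other than 24 hpf replicate 2, 3883 were higher than every stage, and 12806 lower and 2832 higher against 1 stage. At 30 points, 1429 were higher than every stage and 844 higher against 1 stage. A single Wald test against the mean of the stages gave 3897 higher, an F test against pooled embryo reads 3892, and limma on log2 ratios 1394. Over all windows called against 1 stage, the stage test passed in 0 under limma, 4 with windows at extreme levels fitted and 5 with the F test against pooled reads of the other stages. The replicate differences of adult tube feet correlated with those of the stages at 0.0121, 0.00407 and 0.00815, and those of the stages with each other at 0.234 (24 and 48 hpf), 0.0841 (24 and 72) and 0.0619 (48 and 72). Not every pair was over 0.1, so the numbers were not taken as pairing the libraries. With the replicate number as a block, 25997 windows were lower and 2159 higher than every stage, and the stage test passed in 9. Within that block the measures kept their values (-5.25, -11.05, 8.64, 2.40, -15.01, -8.87 and -3.32 points), with exact permutation p = 0.0625 each, the smallest possible. With pooled reads the mean level differed by -6.81 points (exact permutation p = 0.25), windows of 8 to 11 sites by -11.2 (p = 0.0714) and of 12 to 19 sites by -7.51 (p = 0.286). At 40 reads the share at 20% or less differed by 2.31 points (exact permutation p = 0.0714). On the 7 libraries, windows of 20 to 29 sites differed by -1.32 points (exact permutation p = 0.0476). The other differences were smaller with this choice of windows, at -4.55 points for the mean level and -12.0 points at 4 to 7 sites. They were -5.73 points at 8 to 11 sites and -2.26 points at 12 to 19 sites. The repeats that left out each library in turn kept the windows chosen on all 8 libraries. Leaving out each library in turn gave 16819 to 24703 windows lower and 1331 to 2738 higher than every stage, 5502 to 12700 lower and 640 to 1899 higher against 1 stage, and 0 to 1382 passing the stage test over all 1-stage windows. A library left alone in its group was assumed to vary like the other groups. The measures then ranged from -5.61 to -4.88 (mean level), -11.5 to -10.6 (80% or more), 8.23 to 9.06 (between), 1.98 to 2.83 (20% or less), and by number of sites from -15.3 to -14.8, -9.11 to -8.64, -3.63 to -3.01 and -2.53 to -1.41 points. Without an adult library their smallest possible exact p was 0.143. No result reversed. Of 302 repeats for named windows and runs, 274 kept their call or value, 23 lost the call and 5 moved. The cause of each change was not tested. Depth limits windows most in 24 hpf replicate 2, with a median of 67 calls.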
